A study of Nannochloropsis oceanica with 6 samples.

Results

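The nuclear genes described here are those whose IDs stand first or last in the numbering of their prefix in Nannochloropsis oceanica strain IMET1, a unicellular marine alga of the Eustigmatophyceae. Nuclear gene IDs carry 1 of 30 prefixes, NO01 to NO30, followed by a number that goes up in steps of 10 with 0 IDs off that step. The first 5 and the last 5 IDs of 26 prefixes were taken, with NO06, NO09, NO18 and NO30 left out, which gave 260 IDs at 52 ends. These were 260 of 10493 IDs in the table and 2.52% of its 10333 nuclear IDs. The other 10073 nuclear IDs served as the comparison. No source used here says whether IDs follow the order of genes along a chromosome, so an end means an end of the numbering. No nuclear ID was paired with a gene name in the files or in the reference gene table, so the functions of these genes are not given, and no sequence is shown.

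Polyadenylated RNA was sequenced from 6 libraries of IMET1 cells, all grown in flasks for 5 days in low light, which was continuous at 50 µmol photons per m2 and second. A pair of libraries came from the wild type (WT), and a pair from each of KO line 1 and KO line 2, each a knockout of NoPAC4. The culture temperature is 23 °C in the treatment text and 25 °C in the growth text, and RNA input was 2 µg per library. Each knockout group is 1 line, and the ID of NoPAC4 is not given in the labels, so its own level was not analysed here. The labels do not say that replicates were separate cultures, so a p-value here reflects only the spread among these libraries. Depth was 13956855 to 16311248 expected counts per library. In whole-culture RNA, fewer cells that express a gene and less RNA per cell cannot be told apart.

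In many eukaryotes, the DNA next to chromosome ends is rich in repeats and in gene copies that arose by duplication, and genes placed there are often weakly transcribed. Sequence copies matter for counting, because a short read that matches several genes equally well cannot be assigned to 1 of them. Programs that estimate expected counts split such reads among the candidate genes, which leaves counts that are not whole numbers. Such background says nothing of where the genes described here lie.

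Genes at the ends had a lower typical level than the other nuclear genes, and the outermost IDs had the lowest level. The median of the mean level over the 6 libraries was 37.4 TPM (a level per length, with an equal total in each library) for the 260 IDs and 45.6 TPM for the others. The middle range, from the lower to the upper quartile, was 13.0 to 80.2 TPM at the ends and 20.3 to 89.9 TPM elsewhere. The first 5 IDs had a median of 37.8 TPM and the last 5 one of 37.3 TPM. By library, the median at the ends was 36.6 and 35.3 TPM in KO line 1, 38.1 and 38.4 TPM in KO line 2, and 39.9 and 37.0 TPM in WT. The other nuclear IDs had medians of 45.5 and 45.6 TPM, 46.8 and 44.5 TPM, and 45.6 and 42.7 TPM in the same order. The ends were thus lower in 6 of 6 libraries, in every group. Both sets of genes were read from the same libraries, so these are 6 views of the same IDs and no test was made.

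Counting inward from each end, position 1 had a median of 19.2 TPM over its 52 IDs. Positions 2, 3, 4 and 5 had medians of 47.8, 44.5, 44.1 and 32.9 TPM. The next IDs inward, at positions 6 to 10, had 44.7 TPM, those at positions 11 to 20 had 39.8 TPM, and those farther in had 46.8 TPM. Position 1 was low at both kinds of end, with medians of 21.8 TPM for the first and 16.8 TPM for the last ID of a prefix. Its quartiles were 3.15 and 55.8 TPM, so some outermost genes lay above the median of the other nuclear genes. Without position 1, the median at the ends was 41.0 TPM, a comparison chosen after the values were seen.

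**Figure D1:**
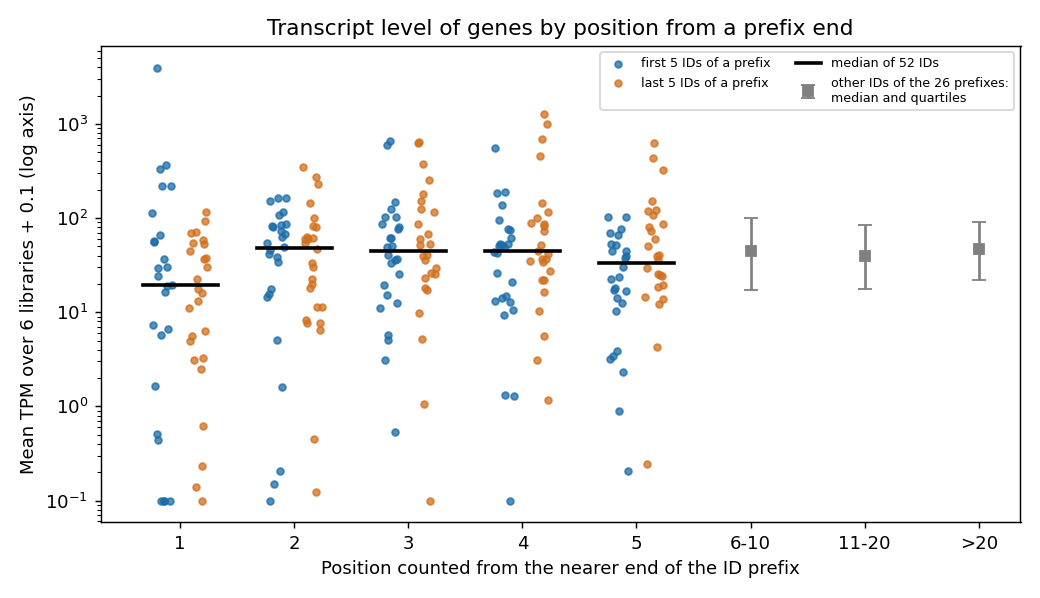
Mean level in TPM over the 6 libraries (log axis) for nuclear IDs grouped by position from the nearest end of the numbering, with medians and quartiles marked. Position 1 has the lowest median, 19.2 TPM, and positions 2 to 4 lie between 44.1 and 47.8 TPM. Position 5 has 32.9 TPM, positions 11 to 20 have 39.8 TPM and IDs beyond position 20 have 46.8 TPM.

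The spread among ends was wide. Of the 260 genes, 22 (8.46%) had a mean below 1 TPM, against 491 (4.87%) of the other nuclear genes. At position 1 this held for 10 of 52 IDs (19.2%). At the upper extreme, 10 of the 260 (3.85%) exceeded 500 TPM, against 302 (3.0%) of the others. The median over the 5 IDs of an end had quartiles of 24.9 and 55.6 TPM across the 52 ends, and 21 ends had a median above that of the other nuclear genes.

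The lowest end was the start of NO07, where the IDs had, from the outermost inward, 0, 0.05, 5.70, 14.9 and 0.11 TPM. The start of NO25 followed with 19.4, 1.51, 3.01, 0 and 0.80 TPM, so there the outermost gene was the highest of its 5. The highest end was the finish of NO22, with 60.2, 990.8, 180.8, 100.4 and 22.5 TPM in order toward the outermost ID. The start of NO21 came next with, from the outermost inward, 16.2, 107.5, 36.3, 95.3 and 101.9 TPM. A median under 10 TPM was found at 5 of the 52 ends.

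**Figure D2:**
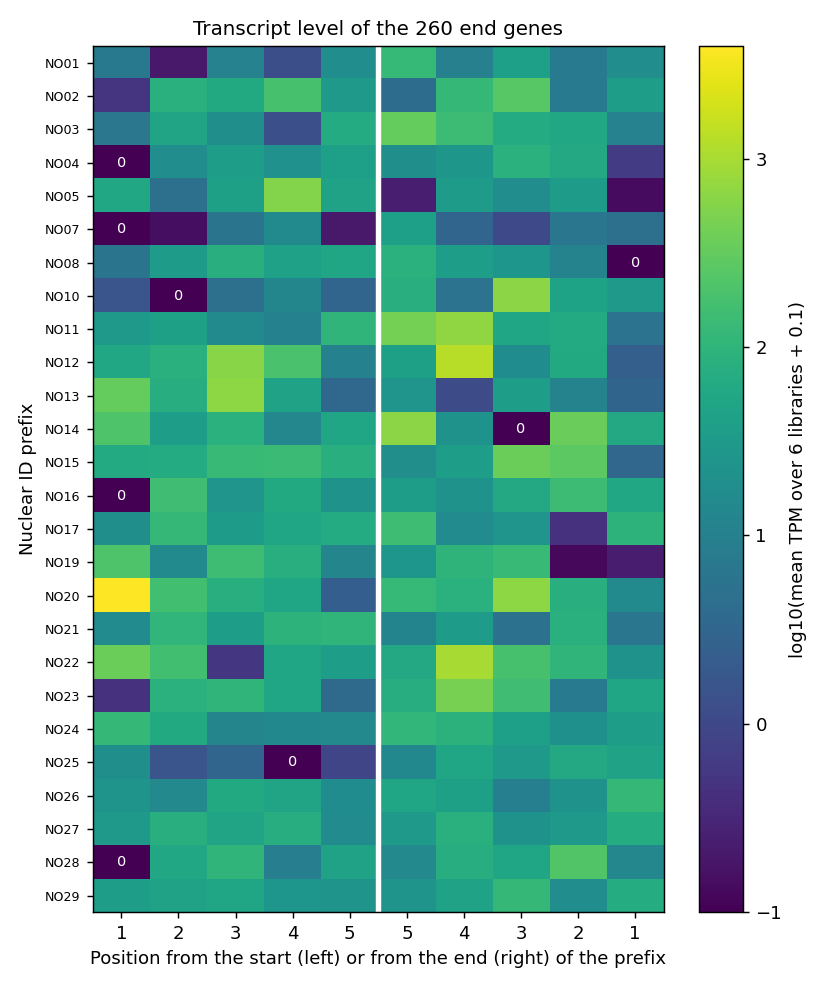
Mean level in TPM (log colour scale) of each of the 260 genes, with 1 row per prefix and columns for the first 5 and the last 5 IDs. Low and undetected genes are spread over many prefixes, with the start of NO07 (median 0.106 TPM) the lowest end and the finish of NO22 (median 100.4 TPM) the highest.

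The most abundant transcript at an end was the outermost gene NO20G00010, with 4095 and 4379 TPM in KO line 1, 3962 and 3709 TPM in KO line 2, and 4270 and 3369 TPM in WT. Its mean was 3964 ± 375 TPM (SD, n = 6), which placed it at rank 4 among nuclear genes, and the knockout and WT libraries overlapped. NO12G03980 followed at 1279 ± 92.9 TPM and rank 71, and NO22G02190 at 991 ± 225 TPM and rank 114. NO11G03590 had 687 ± 92.9 TPM at rank 196 and NO13G00030 had 660 ± 232 TPM at rank 204 (SD over 6 libraries). In NO13G00030, WT replicate 2 stood highest at 1076 TPM while WT replicate 1 had 585.9 TPM, inside the knockout range of 452.3 to 780.8 TPM.

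Genes without a single read in any library were more frequent at the ends, again mainly at the outermost ID. They numbered 8 of 260 (3.08%) at the ends and 148 (1.47%) among the other nuclear IDs. By position from 1 to 5 their numbers were 5, 1, 1, 1 and 0, each of 52 IDs. Without position 1 the share was 1.44%, near that of the other nuclear IDs. The outermost IDs without reads were NO04G00010, NO07G00010, NO16G00010 and NO28G00010 at the start of their prefixes and NO08G04430 at the finish of NO08. The others were NO10G00020, NO14G03290 and NO25G00040. A count of 0 over all 6 libraries allows a level of up to 0.0333 CPM (3 reads over the summed libraries, where CPM scales counts to library size and not to gene length), a limit that covers counting error only.

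Within single libraries, the share of end genes with 0 reads was 6.15% and 6.54% in KO line 1, 6.15% and 6.15% in KO line 2, and 4.62% and 6.54% in WT. Among the other nuclear IDs it was 3.40% and 3.03%, 2.95% and 3.06%, and 2.85% and 3.31% in the same order. The shares at the ends were the larger ones in 6 of 6 libraries. The knockout and WT libraries overlapped in this measure.

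**Figure D3:**
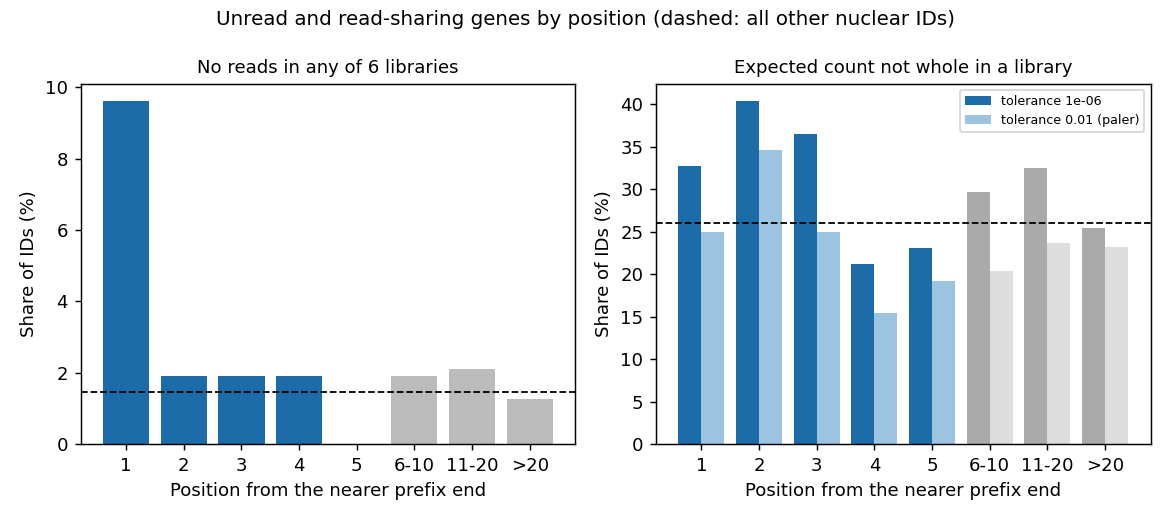
Percent of IDs with 0 reads in all 6 libraries and percent with any fractional expected count, by position from the end of the numbering. The share with 0 reads is 9.62% at position 1 and at most 1.92% at positions 2 to 5, while the fractional share is highest at position 2 with 40.4%.

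Fractional counts, which arise where reads are divided between genes, were found in 80 of the 260 end genes (30.8%) and in 2619 (26%) of the other nuclear IDs, where a count was called whole within 1e-06. They were as frequent at the first 5 IDs, with 39 genes, as at the last 5, with 41. By position from 1 to 5 the shares were 32.7%, 40.4%, 36.5%, 21.2% and 23.1%. Farther inward they were 29.6% at positions 6 to 10, 32.5% at positions 11 to 20 and 25.5% beyond. A raised share was thus not particular to the outer 5 IDs. The difference between end genes and the rest depended on the measure. Fractional counts in all 6 libraries were found in 44 end genes (16.9%) and 1731 others (17.2%), and with a tolerance of 0.01 the shares were 23.8% and 23.1%. At least 1 such gene was present at 35 of 52 ends, and the start of NO01, the start of NO20, the finish of NO02 and the finish of NO10 held 4 each.

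Partners in read sharing were sought as pairs whose fractional counts add up to a whole number in each of the 6 libraries, within 0.0025. Genes more than 0.01 from a whole count in at least 3 libraries numbered 57 of 260 (21.9%) at the ends and 1918 (19.0%) among the rest. Of those 57, 36 (63.2%) had a partner in a pair, against 71.3% of the others. In 29 of the 57 (50.9%) the partner was the next ID in the numbering, against 68.8% of the others. A further 3 formed the triple NO11G00010, NO11G00020 and NO11G00030, and 18 had no match. The most usual partner of an end gene was thus its neighbour, as among the other nuclear IDs. A pair found this way is a match of counts, since no sequence was available to compare.

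A few pairs joined distant IDs. A partner under another prefix was found for 4 of the 57 end genes and for 14 of the 1918 others. A partner of the same prefix, but not next in the numbering, was found for 3 of the 57 and 35 of the 1918. The pairs named below were picked out after their values were seen. NO13G00010 and NO14G00010, the outermost IDs at the start of their prefixes, shared reads across prefixes. Their counts added up to 3949 and 4389 reads in KO line 1, 4640 and 5160 in KO line 2, and 5515 and 6520 in WT. NO13G00010 received 47.5 to 53.5% of each sum, a nearly even division in all 6 libraries. The WT mean of these sums was 381 ± 63.3 CPM (SD, n = 2). The 4 knockout sums averaged 311 ± 40.6 CPM (SD). In CPM the groups overlapped, since KO line 2 replicate 2 had 361 CPM and WT replicate 1 had 336 CPM. Within NO01, NO01G00050 shared reads with NO01G00190, 14 IDs farther in, and received 49.2 to 50.4% of the sum. NO01G00040 and NO01G00180, also 14 IDs apart, had sums of at most 4 reads per library.

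The other pair across prefixes joined NO02G00010, the first ID of NO02, with NO04G05300, the last of NO04. Its summed counts were 11, 4, 5 and 3 reads in the knockout libraries and 29 and 27 reads in WT. The pair averaged 0.39 ± 0.24 CPM over the 4 knockout libraries (SD). The WT average was 1.77 ± 0.00 CPM (SD, n = 2). NO02G00010 alone held 2 rounded reads over the 4 knockout libraries and 33 over both WT libraries, a ratio of 0.0329 with an exact 95% interval of 0.00382 to 0.129, which covers counting error only. The division of reads between both IDs differed by library, so the value of either ID alone is uncertain.

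The knockout comparisons ask which genes differ in level when NoPAC4 is lost. Of the 260 end genes, 236 passed the filter on low counts and 24 did not, 8 of them with no read and 16 with at most 10 reads in any library. A gene that passed only through the group in which it is high had to differ, so the counts below are descriptions. No end gene passed the threshold between both knockout lines and WT by edgeR's quasi-likelihood test at an adjusted p below 0.05. The count was 0 of 236, beside 0.165% of all 9712 genes tested. By limma-voom it was also 0 of 236, beside 0.185%. At an unadjusted p below 0.05, edgeR gave 52 end genes (22.0%), beside 14.4% of all genes. Of these, 45 (19.1%, background 9.69%) were lower and 7 (2.97%, background 4.73%) were higher in the knockout libraries.

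Other tools did make calls, mostly toward lower levels in the knockout lines. DESeq2 called 27 of 238 end genes, 25 lower and 2 higher, beside 5.54% of all genes (4.63% lower and 0.91% higher). edgeR's likelihood ratio test called 29 of 236, 27 of them lower, beside 6.94% (5.72% lower and 1.21% higher). The lists of DESeq2 and the likelihood ratio test shared 25 genes. Without the filter on low counts, edgeR's quasi-likelihood test called 14 end genes, beside 2.26%. With the filter, its calls turned on single WT libraries. Without WT replicate 1 it called 73 end genes, 46 lower and 27 higher, or 30.9% beside 29.3% of all genes. Without WT replicate 2 it called 24, 22 lower and 2 higher, or 10.2% beside 5.02%. Both of these fits use the same knockout libraries, and in each the lone WT library is assumed to vary like the other groups.

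Across the 236 tested end genes, the median log2 difference between the knockout lines and WT was −0.03, with quartiles of −0.28 and 0.12. For the other tested nuclear genes it was 0.01, with quartiles of −0.16 and 0.15. The first 5 IDs had a median of 0.02 and the last 5 one of −0.07. Position 1 had −0.13 over 44 tested genes. Below 0 were 127 of 236 (53.8%), beside 48.7% of all genes. The next IDs inward, at positions 6 to 10, had a median of −0.04, with 59.1% below 0. Of these, 18.7% had an unadjusted p below 0.05 by edgeR. At positions 11 to 20 the values were −0.004, 51.2% and 17.8%, and farther in 0.01, 47.7% and 13.4%. The lean toward lower levels was thus not confined to the outer 5 IDs. Groups that did not overlap, with every knockout library under both WT libraries, were found in 50 end genes (21.2%), beside 12.8% of all genes. The opposite order was found in 21 (8.90%), beside 10.6%.

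Level moved with this count. Unadjusted p-values below 0.05 were found in 13 of 30 tested end genes under 10 TPM (43.3%, against 24.0% of other nuclear genes at that level). Between 10 and 50 TPM it was 19 of 97 (19.6% against 13.7%), and at 50 TPM or more 20 of 109 (18.3% against 12.9%). The share at the ends was the larger one in each band. The part of level in the whole difference was not tested.

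**Figure D4:**
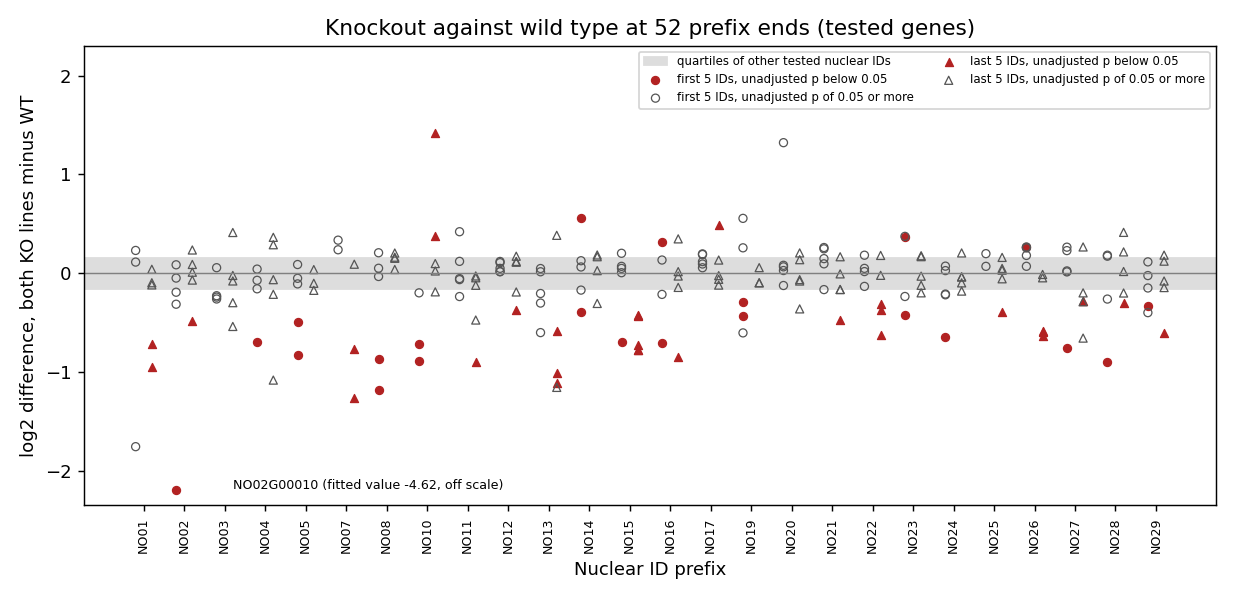
Log2 difference of both knockout lines from WT, by edgeR, for the tested genes of each of the 52 ends. A grey band marks the quartiles of the other tested nuclear IDs. The lowest value, −4.62, is off scale and drawn near the lower edge. End medians run from −1.01 at the finish of NO13 to 0.28, and 5 ends lie below −0.5.

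Genes with an unadjusted p below 0.05 by edgeR came from 32 of 52 ends and 24 of 26 prefixes, where 14.4% of all genes had such a p-value. No matching count for other runs of 5 IDs is given, so this spread is a description. The end medians ranged from −1.01 to 0.28 on the log2 scale. The finish of NO13 (−1.01), the finish of NO07 (−0.77), the finish of NO15 (−0.73), the start of NO10 (−0.72) and the finish of NO26 (−0.59) were the 5 below −0.5. At the finish of NO15, singled out after its values were seen, all 5 genes had an unadjusted p below 0.05, with log2 differences of −0.44, −0.78, −0.78, −0.42 and −0.73 toward the outermost ID. Among these, NO15G03430 had 257.8 and 271.3 CPM in KO line 1, 214.6 and 299.2 CPM in KO line 2, and 434.6 and 459.1 CPM in WT. Every knockout library of that gene was under both WT libraries, and its adjusted p by edgeR was 0.0565.

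The largest negative differences among end genes with at least 5 CPM were those of NO07G04700, NO08G00010 and NO13G03460. NO07G04700, the outermost ID at the finish of NO07, had 5.79, 3.29, 2.38 and 4.34 CPM in the knockout libraries and 7.26 and 11.5 CPM in WT. Its log2 difference was −1.26 ± 0.34 (SE), with an adjusted p of 0.137 by edgeR. NO08G00010, the first ID of NO08, had 7.22, 7.04, 9.24 and 8.33 CPM in the knockout libraries and 22.0 and 14.1 CPM in WT. The difference was −1.19 ± 0.20 (SE), with an adjusted p of 0.0532 by edgeR. In both genes the knockout and WT libraries did not overlap.

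NO13G03460, next to the outermost ID at the finish of NO13, had 21.5 and 21.3 CPM in KO line 1, 28.3 and 36.4 CPM in KO line 2, and 49.7 and 64.0 CPM in WT. Its log2 difference was −1.11 ± 0.15 (SE), with an adjusted p of 0.0524 by edgeR. Its neighbour NO13G03450, named after its values were seen, had 35.2, 30.7, 41.8 and 54.2 CPM in the knockout libraries and 69.0 and 91.7 CPM in WT. The difference was −1.01 ± 0.16 (SE), also with an adjusted p of 0.0524 by edgeR. In both neighbours KO line 1 was the lowest group, KO line 2 was in between and WT was the highest, with no overlap between groups. Over the alternative settings, the adjusted p of NO13G03460 ran from 9.45e-08 to 0.283 and that of NO08G00010 from 1.67e-05 to 0.283.

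Positive differences were smaller. NO14G00050, the innermost of the first 5 IDs of NO14, had 90.8, 84.6, 110.2 and 96.4 CPM in the knockout libraries and 64.4 and 64.7 CPM in WT. Its log2 difference was 0.56 ± 0.11 (SE), with an adjusted p of 0.0560 by edgeR that ran from 0.00220 to 0.283 over the alternatives. NO19G00040 had 9.68, 7.76, 7.07 and 9.24 CPM in the knockout libraries and 7.14 and 4.31 CPM in WT, a difference of 0.55 ± 0.26 (SE) with an adjusted p of 0.414 by edgeR. NO17G02960 had 21.2, 19.2, 16.9 and 15.3 CPM against 13.9 and 11.8 CPM, a difference of 0.49 ± 0.14 (SE) with an adjusted p of 0.154 by edgeR. The groups did not overlap in NO14G00050 and NO17G02960, and overlapped in NO19G00040.

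**Figure D5:**
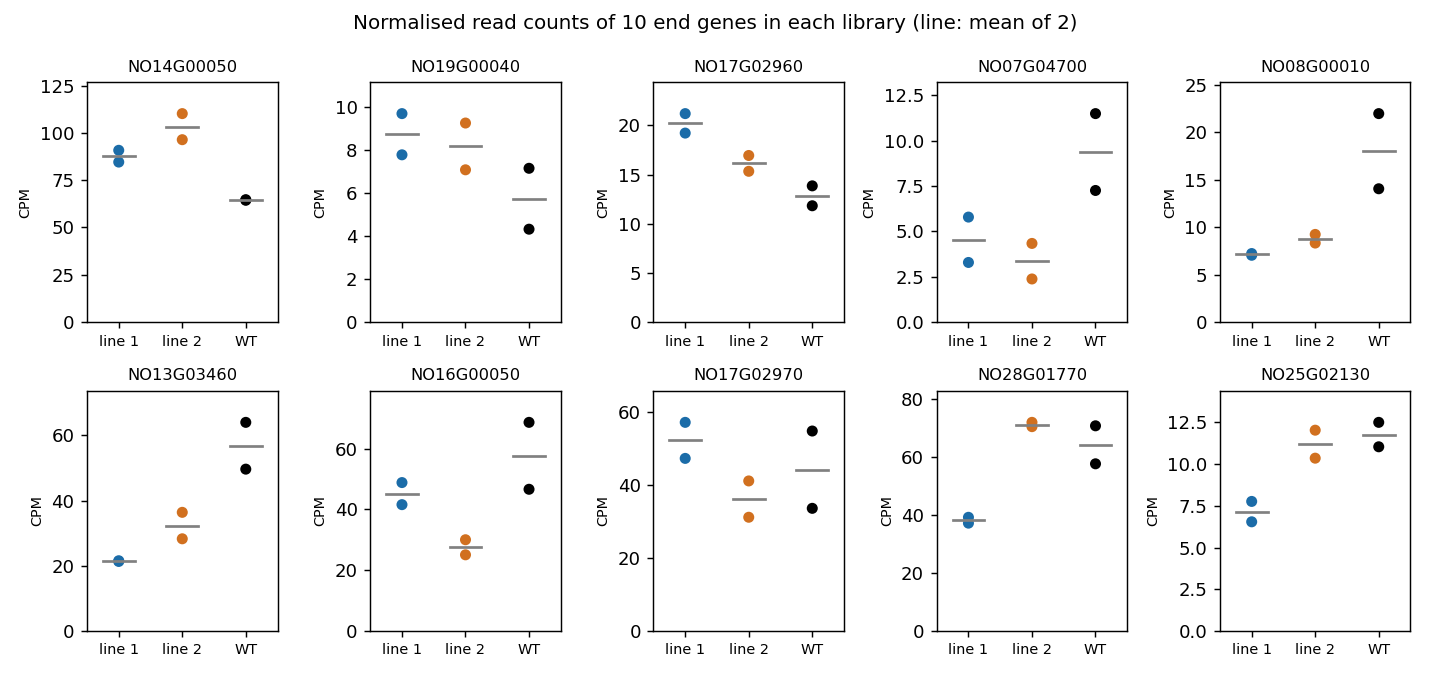
CPM in each of the 6 libraries for the end genes with the largest differences, with points for KO line 1, KO line 2 and WT. In NO13G03460 every knockout library (21.3 to 36.4 CPM) lies under both WT libraries (49.7 and 64.0 CPM), and in NO14G00050 every knockout library (84.6 to 110.2 CPM) lies above both (64.4 and 64.7 CPM).

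Several abundant end genes came close to the threshold, and 16 end genes had an adjusted p between 0.0524 and 0.06 by edgeR, among 274 genes of the whole table with an adjusted p below 0.06. Those named here, apart from NO22G02190, were picked out after their values were seen. NO05G00040 had 791.9 and 901.7 CPM in KO line 1, 660.8 and 785.2 CPM in KO line 2, and 1406 and 1367 CPM in WT, a log2 difference of −0.83 ± 0.12 (SE). NO11G03580, which shares reads with NO11G03570, had 591.6 to 776.8 CPM in the knockout libraries and 1230 and 1376 CPM in WT, a log2 difference of −0.90 ± 0.13 (SE). The pair as a whole had a log2 difference of −0.81, and NO11G03570, which received 25.5 to 32.1% of the sum, had −0.58. The part of read division in the value of NO11G03580 was not tested. NO22G02190 had 849.3, 908.2, 779.1 and 858.7 TPM in the knockout libraries and 1308 and 1242 TPM in WT, with a log2 difference of −0.63 ± 0.11 (SE). In all 3 genes the knockout libraries lay under both WT libraries.

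Differences beyond 2-fold were found in 10 of 236 end genes (4.24%, beside 1.45% of all genes), 8 of them lower (background 1.03%) and 2 higher (background 0.422%). Both higher ones, named after their values were seen, shared reads with a far more abundant neighbour. NO10G04100 had a log2 difference of 1.42, while NO10G04090 received 98.0 to 99.6% of their common sum and the sum itself had a log2 difference of −0.17. NO20G00050 had 0, 30.6, 63.1 and 34.5 expected counts in the knockout libraries and 24.1 and 0 in WT. Its partner NO20G00040 received 97.3 to 100% of their sum, which had a log2 difference of −0.11. In these pairs the sum did not show the difference given by the less abundant ID. Read sharing was not confined to the higher genes. The lowest value, −4.62, was that of NO02G00010, which held 2 rounded reads in the knockout libraries and 33 in WT. Its sum with NO04G05300 had a log2 difference of −2.17.

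Each knockout line was also set against WT on its own. These comparisons share the WT libraries with each other and with the comparison above. For KO line 1, edgeR's quasi-likelihood test called 0 of 236 end genes (background 0.134%), with a smallest adjusted p of 0.0726. At an unadjusted p below 0.05 it gave 45, 38 lower and 7 higher, beside 13.6% of all genes (8.35% lower and 5.24% higher). For KO line 2 it called 0 of 236 (background 0.0412%), with a smallest adjusted p of 0.114. At an unadjusted p below 0.05 it gave 43, 38 lower and 5 higher, beside 11.8% (8.66% lower and 3.12% higher). The median log2 difference of end genes was −0.06 in KO line 1 and −0.02 in KO line 2. DESeq2 called 20 end genes in KO line 1 (background 4.02%) and 21 in KO line 2 (background 3.72%). edgeR's likelihood ratio test called 26 in each line, beside 4.99% and 4.49%, and limma-voom called 0 in each, beside 0.196% and 0.0412%. edgeR's quasi-likelihood counts again moved when a WT library was left out. For KO line 1 the count was 70 without WT replicate 1 (29.7%, under the background of 32.4%) and 9 without WT replicate 2 (3.81%, background 1.9%). For KO line 2 it was 38 without WT replicate 1 (16.1%, near the background of 15.9%) and 20 without WT replicate 2 (8.47%, background 6.7%).

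Between the knockout lines, few end genes had a small p-value. edgeR's quasi-likelihood test called 0 of 236 (background 0%), with a smallest adjusted p of 0.560. At an unadjusted p below 0.05 it gave 11 end genes, 9 lower and 2 higher in KO line 1, beside 3.75% of all genes (1.76% lower and 1.99% higher). DESeq2 and edgeR's likelihood ratio test called 1 each, NO28G01770, beside 0.156% and 0.237%, and limma-voom called 0, beside 0%. NO28G01770, the innermost of the last 5 IDs of NO28, had 37.1 and 39.2 CPM in KO line 1 and 70.4 and 71.9 CPM in KO line 2. WT had 57.6 and 70.7 CPM. Its log2 difference was −0.90 ± 0.14 (SE), with an adjusted p of 0.560 by edgeR that ran from 0.000264 to 1 over the alternatives, and it was called without WT replicate 1 and without WT replicate 2, beside 0.124% of all genes in each. NO25G02130 had 6.54 and 7.76 CPM in KO line 1 against 12.0 and 10.4 CPM in KO line 2, a difference of −0.65 ± 0.19 (SE) with an adjusted p of 0.914 by edgeR.

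In the other direction, NO16G00050 had 48.9 and 41.6 CPM in KO line 1, 30.02 and 25.1 CPM in KO line 2, and 68.7 and 46.7 CPM in WT. The log2 difference between the lines was 0.72 ± 0.22 (SE), with an adjusted p of 0.914 by edgeR. NO17G02970 had 57.0 and 47.2 CPM in KO line 1 and 41.0 and 31.1 CPM in KO line 2, a difference of 0.53 ± 0.26 (SE) with an adjusted p of 0.914 by edgeR. The lines did not overlap in these genes. Across all tested end genes the lines did not overlap in 49 genes higher in KO line 1 (20.8%, background 25%) and 52 lower (22.0%, background 24.4%), shares below the background. Beyond 2-fold were NO01G00030 at −1.37 and NO20G00050 at −1.73, named after their values were seen, or 2 of 236 beside 0.978%. NO20G00050 shares reads with the far more abundant NO20G00040. Their sum averaged 160 CPM in KO line 1 and 169 CPM in KO line 2, so it did not show that difference. End medians ranged from −0.54 to 0.19.

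The ends of the 4 prefixes left out, NO06, NO09, NO18 and NO30, were set beside these genes by the same measures. Their 40 IDs had a median of 2.40 TPM, and 17 (42.5%) were below 1 TPM. The shares with 0 reads in all libraries (3 IDs, 7.50%) and with fractional counts (9 IDs, 22.5%) were of 40. Of their 27 tested genes, 12 (44.4%) had an unadjusted p below 0.05 by edgeR for both knockout lines against WT. That share was 14.4% of all genes. The ends of these 4 prefixes had been set apart as differing between the knockout lines in these same data. Their share of small p-values is thus not independent of that choice. For these 27 the median log2 difference was −0.08, with 18 (66.7%) below 0.

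Length and replicate spread were compared as properties the choice of IDs did not use. The relative effective length, taken from the ratio of expected count to TPM and scaled in each library to the nuclear median of the genes read there, had a median of 1.02 over the 252 end genes with reads and 0.98 over the others. By position from 1 to 5 it was 1.40, 1.34, 1.02, 0.71 and 0.87, and at position 1 it was 1.00 for the first and 1.58 for the last IDs. Among genes with at least 20 CPM, the SD of the log2 ratio between replicates over 154 end genes was 0.41 in WT, 0.15 in KO line 1 and 0.22 in KO line 2. The 6944 others had 0.45, 0.16 and 0.22. The WT pair was the least alike in both sets.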

How the data were processed

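Polyadenylated RNA of 6 libraries was sequenced with a kit that does not mark strand, per the labels' protocols. The authors deposited a table of expected counts and a table of TPM for the same IDs and libraries. STAR and edgeR were used, per the submitters' processing notes, with no version given. The counting program, genome build and annotation are not given in the sources used here. Expected counts split shared reads, so values of gene copies and overlapping genes are uncertain.

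Groups and replicate numbers came from sample titles. Some description fields carry other replicate numbers. The members and lists were chosen with earlier results of these data known.

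Expected counts were rounded and fitted in R 4.3.3 with edgeR 4.0.16 (TMM factors, filterByExpr by group, robust quasi-likelihood, 3 residual degrees of freedom) over all 6 libraries. Benjamini-Hochberg adjustment covered all 9712 genes tested. The 781 IDs removed by the filter entered no test. CPM used TMM-scaled library sizes, and TPM was averaged as deposited. DESeq2 1.42.0, limma-voom (limma 3.58.1), limma on log2(TPM + 1) and log2(TPM + 0.1), other scalings, no filter, other definitions of an end and each library left out were alternatives. The edgeR fit was tested on simulated data. Levels and shares are descriptions without a test.

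The rule for named genes took every end gene called in any comparison by the quasi-likelihood test, the 5 of highest TPM, and, at 5 CPM or more, the 3 largest positive and 3 largest negative differences from WT and 2 each way between the lines. It also took the 2 highest and 2 lowest ends by median TPM.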

Additional observations from a re-analysis of the deposited data

How the results depend on the processing

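No end gene passed the threshold under TMM, RLE or upper-quartile scaling, limma-voom or limma on log2 TPM in any comparison. For both lines against WT, the count of 0 became 14 without the low-count filter (background 2.26%). It became 27 by DESeq2 (background 5.54%), 29 by the likelihood ratio test (background 6.94%) and 1 of 471 with 10 IDs per end (background 0.165%). It ranged from 0 to 73 (background 29.3%) with 1 library left out, and stayed at 0 without any single knockout library. For KO line 1 it became 20 by DESeq2 and 26 by the likelihood ratio test, and ranged from 0 to 70 (29.7% of end genes, background 32.4%). For KO line 2 it became 21 and 26, and ranged from 0 to 38 (16.1%, background 15.9%). Between the lines it became 1 by DESeq2 (background 0.156%) and by the likelihood ratio test (background 0.237%). It was also 1 with only the groups compared, for which no share over all genes is given.

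Same-numbered libraries deviated together with correlations of 0.04 for WT and KO line 1, 0.33 for WT and KO line 2, and 0.10 for the lines, so the numbers were not taken as pairs. With the replicate number as a block, the count was 19 for both lines (18 lower, background 3.47%). It was 1 for KO line 1 (0.424%, beside 0.201% of the other nuclear IDs), 0 for KO line 2 and 0 between the lines.

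The median level of end genes minus that of the others was -8.17 TPM, -5.15 with 10 IDs per end, -11.5 over all 30 prefixes, -5.12 among IDs of at least 1 TPM and -4.55 without position 1. The share with 0 reads differed by 1.61 percentage points, by 3.02 with 3 IDs per end, and by -0.027 without position 1, which reverses the sign. The fractional share differed by 4.77 points, by 10.6 with 3 IDs per end and by 0.725 with a tolerance of 0.01. Leaving out 1 library gave -8.59 to -7.01 TPM, 1.51 to 1.91 points and 4.56 to 5.06 points. The setting without position 1 was chosen after seeing the data. For single named genes, 27 values crossed the threshold under an alternative and 0 reversed. The causes of these changes were not tested. With 2 libraries per group and 3 residual degrees of freedom, counts of calls rest on few libraries, and levels under the 3-read limit cannot be ordered.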
